A study of Rattus norvegicus with 6 samples.

Results

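The miRNA content of lung from sham-operated rats was described in 3 small RNA libraries, sham 1, sham 2 and sham 3, of the 6 in the series. The lungs came from male Sprague-Dawley rats of 7 to 8 weeks that were anaesthetised, ventilated and opened on the left side of the chest without closing the vessels of the hilum. Every row with a rat miRNA name was taken, which gave 630 names of the 693 in the table. The other 63 rows carried only the number of a predicted miRNA. The libraries were made from 3 µg of total RNA each with an adapter-ligation kit, and no library from a lung that had been clamped was used. The samples are described as biological replicates by the study, whereas the labels name no animal, so the spread given here is that between these 3 samples.

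A miRNA is cut from an RNA hairpin. The 5p and the 3p arm of the hairpin each give a strand of about the same length, and usually 1 of them is loaded into an Argonaute protein while the other is broken down. The loaded strand finds its target mRNAs mainly through its seed, bases 2 to 8 from the 5′ end, so miRNAs with the same seed form a family. In lung, several miRNAs are known as products of particular cells, among them miR-126 of endothelium, miR-143 and miR-145 of smooth muscle and the miR-200 group of epithelium.

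The sequences of 8 of the 10 most abundant miRNAs are shown for their seeds. They are printed 5′ to 3′ as RefSeq gives them for the rat assembly GRCr8, with the seed in capitals. Of the 10 most abundant names, miR-30d-5p and miR-99a-5p had no single sequence there.
miR-21-5p: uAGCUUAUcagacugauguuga
miR-143-3p: uGAGAUGAagcacuguagcuca
miR-126a-3p: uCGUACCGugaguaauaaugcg
miR-26a-5p: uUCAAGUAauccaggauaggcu
miR-30a-5p: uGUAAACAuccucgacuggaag
miR-10a-5p: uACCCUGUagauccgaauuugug
miR-148a-3p: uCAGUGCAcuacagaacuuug
let-7f-5p: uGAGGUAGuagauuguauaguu

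RefSeq places miR-21-5p on the minus strand at chr10:71902653-71902674 of GRCr8, outside the span of any other gene. It places miR-143-3p on the minus strand at chr18:57371373-57371394, within the lncRNA gene Carmn on the same strand. miR-126a-3p lies on the plus strand at chr3:29813219-29813240, within Egfl7, a gene of endothelium, also on the same strand. miR-26a-5p lies within Ctdspl, a phosphatase gene, and miR-30a-5p lies in no other gene's span. Exon limits were not used, and the genome build behind the deposited counts was not given in the sources used here.

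Reads of rat-named miRNAs numbered 7457395 in sham 1, 10715629 in sham 2 and 10299746 in sham 3. Levels are given in RPM, the reads of a name per 1000000 of these reads, with no term for length. At these depths 3 reads, the limit that a count of 0 allows, came to 0.280 to 0.402 RPM. The libraries differed from each other far beyond counting error, with chi-square values of 306 to 1600 per degree of freedom, so none was a copy of another. Levels of different miRNAs also carry the unequal efficiency of adapter ligation, whose size was not measured here.

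Sham 3 stood apart in its most abundant miRNA. miR-21-5p, a widely expressed miRNA that rises in inflamed tissue and represses Pdcd4, was at 134584 RPM in sham 1, 122886 in sham 2 and 242212 in sham 3. The level in sham 3 was 1.88 times the mean of the other libraries. Since all levels are shares of a fixed total, this lowers the others in sham 3 by construction. Over the 274 names at a mean of 10 RPM or more, the median name in sham 3 was at 0.847 times the mean of the other libraries, and at 0.972 times after miR-21-5p was left out of the total. Key shares are therefore also given without it.

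Of the 630 names, 494 had reads in every library, 100 in some and 36 in none. A level of 10000 RPM or more was reached by 16 names, 1000 by 68, 100 by 160 and 10 by 274. The median name was at 4.63 RPM. The 5 most abundant names together held 55.0% of the reads (52.9 to 58.7% in a library) and the 10 most abundant 67.7% ± 2.12 (SD, n = 3). It took 39 names to reach 90% of the reads and 129 to reach 99%. The remaining names, the large majority, shared the last 1% of the reads.

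The same 5 names led the ranking in every library, with miR-21-5p and miR-143-3p changing places. miR-143-3p, known from smooth muscle and pericytes, was at 159415, 166173 and 110000 RPM in sham 1, 2 and 3. It ranked first in sham 1 and sham 2 and second in sham 3. When miR-21-5p was left out, its share was 18.4% in sham 1, 18.9% in sham 2 and 14.5% in sham 3, so sham 3 was still the lowest. miR-126a-3p, the endothelial miRNA that represses Spred1 and supports vessel growth, was at 88655, 92260 and 91391 RPM and ranked 3rd in each library. Its coefficient of variation (CV, the SD as a percent of the mean) over the 3 libraries was 2.07%.

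miR-26a-5p, a broadly expressed miRNA that represses Ezh2, was at 72834, 80841 and 72141 RPM. miR-30a-5p, of the miR-30 family, was at 76150, 67236 and 71746. Their ranges overlapped, and they ranked 5th and 4th in sham 1 but 4th and 5th in sham 2 and sham 3, so their order was not settled by these libraries. miR-30d-5p followed at 41512 ± 4164 RPM (SD, n = 3), 6th in every library.

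The next names overlapped more. miR-10a-5p, encoded in a Hox gene cluster, was at 29019, 27327 and 20569 RPM. miR-148a-3p, a repressor of Dnmt1, was at 21471, 31851 and 20790, with sham 2 at 1.51 times the mean of the others. The ranges of miR-10a-5p and miR-148a-3p overlapped. miR-99a-5p was at 18253 ± 1419 and let-7f-5p at 17041 ± 479 RPM (SD, n = 3). Of the 20 most abundant names, 17 were among the first 20 of each library.

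**Figure D1:**
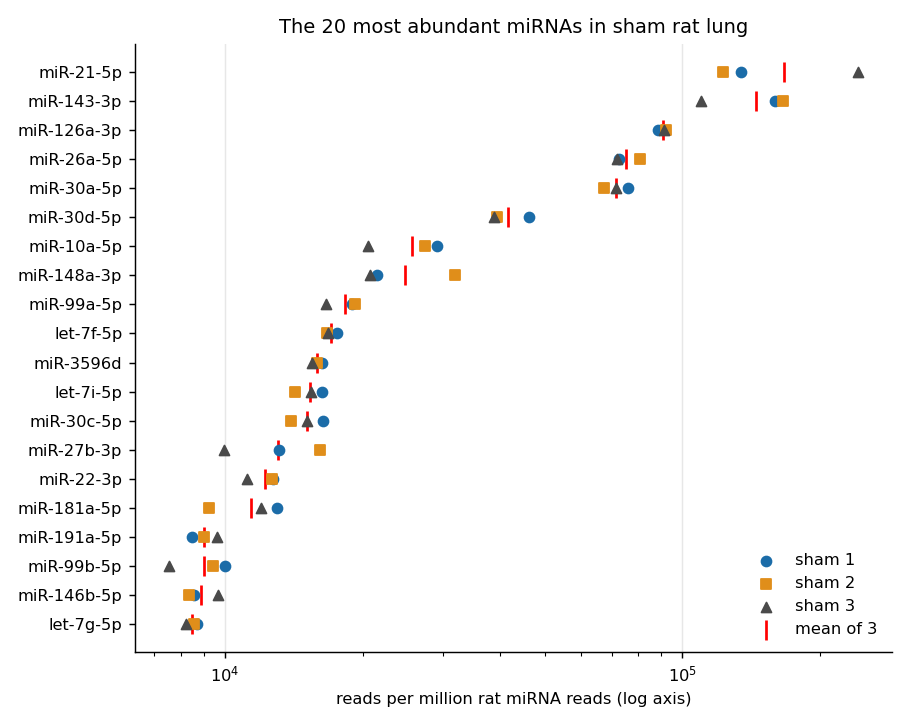
The 20 most abundant miRNAs, ordered by mean, with the level in RPM (log axis) in sham 1, 2 and 3 and the mean as a red tick. miR-21-5p was at 242212 RPM in sham 3 against 134584 and 122886 in the others, while the 3 points of miR-126a-3p nearly coincide.

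Families were summed over all their names, both arms included. The 30 families examined held 176 names and 66.5% ± 3.27 of the reads (SD, n = 3). The miR-21 hairpin held 13.5%, 12.3% and 24.2% of the reads in sham 1, 2 and 3, almost all of it miR-21-5p. The miR-30 family, whose members repress regulators of autophagy and of epithelial and vascular cell state, held 15.2%, 13.2% and 13.7%. In sham 1 and sham 2 the miR-30 family therefore exceeded miR-21, and in sham 3 it was below.

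Within the miR-30 family, miR-30a-5p alone made up 51.0% of the reads. miR-30d-5p was at 41512 ± 4164, miR-30c-5p at 15133 ± 1235, miR-30e-5p at 8155 ± 237 and miR-30b-5p at 2553 ± 805 RPM (SD, n = 3). All neighbours in this order were separated by more than their SDs.

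The miR-26 family held 7.82% ± 0.499 of the reads, of which miR-26a-5p made up 96.3%. The let-7 and miR-98 family, repressors of Lin28, Hmga2 and Ras genes that accumulate in differentiated tissue, held 6.04% ± 0.365 (SD, n = 3). It was spread more evenly than the others, since its leading member let-7f-5p made up 28.2% of it. let-7i-5p followed at 15316 ± 1032 RPM, and let-7g-5p at 8479 ± 237 (SD, n = 3). let-7c-5p was at 8563, 7089 and 6876 RPM, with sham 1 the highest.

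The miR-99 and miR-100 family, known as repressors of mTOR, held 3.17% ± 0.361 of the reads. The miR-148 and miR-152 family held 2.69% ± 0.633 and the miR-10 family 2.59% ± 0.451, a difference within their spread. The miR-27 family was at 1.84% ± 0.435, miR-181 at 1.28% ± 0.216, miR-22 at 1.23% ± 0.0896 and miR-146 at 1.03% ± 0.0725 (SD, n = 3 each). The miR-101 family held 0.816%, 1.31% and 0.780% of the reads in sham 1, 2 and 3, so that its level in sham 2 stood above both others. At the lower end, the miR-19 family of the miR-17-92 cluster held 0.0691% ± 0.00463.

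Reads were also counted by seed. RefSeq gave a single mature sequence for 569 of the 630 names. They held 91.5 to 92.7% of the reads of a library and carried 483 different seeds. Of the reads of these names, 4 seeds held more than 50% and 22 seeds 90%. The seed AGCUUAU of miR-21-5p took 18.1%, GAGAUGA of miR-143-3p 15.8%, GUAAACA of miR-30a-5p, miR-30c-5p, miR-30e-5p and the scarce miR-384-5p 10.3% and CGUACCG of miR-126a-3p 9.86%. The miR-30b-5p and miR-30d-5p reads are not in these shares, since these names had no single sequence. Of the 4 seeds, 3 belonged to miRNAs that shared their seed with no other name that had a single sequence. The let-7 seed GAGGUAG was carried by 9 names and took 6.47%.

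The first base of the mature strand was also uneven. Argonaute proteins are known to hold strands with a 5′ U or A more readily. U was the first base of 36.9% of the names with a single sequence and of 85.1% ± 1.18 of their reads (SD, n = 3). A began 28.8% of the names but 7.41% of the reads, C 23.0% and 6.11%, and G 11.2% and 1.35%. Names with a first U still held 81.8% of the reads after miR-21-5p was left out. Strands of 22 nt made up 46.6% of the names and 76.4% ± 2.22 of the reads.

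Lists of miRNAs known from particular cell types were summed in each library. There were 19 such lists with 103 names, which together held 29.7% ± 3.43 of the reads (SD, n = 3). Few of these miRNAs are made by 1 cell type only, and in whole lung a lower share of cells and a lower amount of RNA per cell cannot be told apart.

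Smooth muscle miRNAs, the arms of miR-143 and miR-145, held 16.8% of the reads in sham 1, 17.2% in sham 2 and 11.6% in sham 3. Without miR-21-5p in the total the values were 19.5%, 19.6% and 15.3%. miR-143-3p made up 95.5% of the list. miR-145-5p, which comes from the same transcript and promotes the contractile state of smooth muscle, was at 8434, 4922 and 5451 RPM, with sham 1 the highest.

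Endothelial miRNAs, the names of miR-126, held 9.38%, 9.90% and 9.65% of the reads in sham 1, 2 and 3. The CV of this list was 2.69%. Without miR-21-5p in the total its shares were 10.8%, 11.3% and 12.7%, with sham 3 the highest, so its small CV depends on the total used. The mesenchymal list of miR-199a and miR-214 held 0.351% ± 0.0616 (SD, n = 3), and miR-214-5p had no read in any library.

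Epithelial miRNAs of the miR-200 group, which keep epithelial cells from losing their identity by repressing Zeb1 and Zeb2, held 1.40%, 1.70% and 1.35% of the reads. miR-200a-3p was the first of them at 6520 ± 1033 RPM, followed by miR-200b-3p at 3939 ± 595, miR-200c-3p at 3007 ± 304 and miR-429 at 773 ± 164 (SD, n = 3). The list held 8 names with 10 or more reads in every library out of 9.

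Ciliated airway miRNAs, the miR-34b, miR-34c and miR-449 names that act in the formation of motile cilia, differed more between libraries. They held 0.414% of the reads in sham 1, 0.903% in sham 2 and 0.358% in sham 3. miR-34c-5p made up 93.5% of the list and was at 3798, 8504 and 3352 RPM. miR-34b-3p moved in the same direction, at 97.9, 217 and 71.1 RPM. miR-449a-5p, of another gene with the same seed as miR-34c-5p, went the other way, at 105 RPM in sham 1, 34.8 in sham 2 and 59.0 in sham 3. Sham 2 was thus the highest library for the miR-34b and miR-34c names and the lowest for miR-449a-5p. It was also the lowest for miR-34a-5p, outside this list but with the same seed. The reads of miR-34a-5p numbered 2374, 2220 and 2548 before scaling, with the fewest in sham 2 although its total was the largest. The order of sham 1 and sham 3 cannot be read from these unscaled counts.

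Blood cell miRNAs showed their own order of libraries. Erythroid names, led by miR-451-5p, which is cut by Argonaute 2 without Dicer, held 0.131%, 0.213% and 0.351% of the reads in sham 1, 2 and 3. miR-451-5p itself was at 948, 1198 and 2224 RPM, and miR-486 at 274, 622 and 956. miR-144-3p, from the same transcript as miR-451, was at 51.5, 220 and 206 RPM. Sham 1 was the lowest library for all 3 of them. Whether blood left in the lungs differed was not tested.

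Myeloid miR-223, which restrains neutrophil activity, was highest in sham 3 and lowest in sham 2. miR-223-3p was at 452, 333 and 676 RPM and miR-223-5p at 143, 58.0 and 245. Thus the library with the most miR-21-5p also had the most erythroid and myeloid miRNA reads. Without miR-21-5p in the total, the erythroid list was at 0.152%, 0.242% and 0.463% and the myeloid list at 0.0687%, 0.0445% and 0.122%, in the same order.

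miR-142, made by all leukocytes, held 0.133%, 0.210% and 0.172% of the reads, with sham 2 the highest. The lymphocyte miRNAs miR-150 and miR-342 held 0.171% ± 0.0155 (SD, n = 3), and miR-150-5p was at 1466, 1561 and 1302 RPM. miR-146, a feedback inhibitor of NF-κB signalling listed with miR-155 as activated leukocyte miRNAs, was dominated by miR-146b-5p at 8836 ± 699 RPM. miR-146a-5p was at 1972, 1187 and 1296 RPM. miR-155-5p, which is induced in activated lymphocytes and macrophages, was at 33.1, 45.9 and 25.8 RPM, far below both.

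Neuroendocrine and endocrine names were well measured. miR-375-3p, known from islet and neuroendocrine cells, was at 1738, 2375 and 1257 RPM. miR-7a-5p, known from endocrine and neural cells, was at 2205, 1878 and 3097. The highest library of the 2 miRNAs therefore differed. The cluster of miR-183, miR-96 and miR-182, known from sensory cells, held 0.203% ± 0.0393 of the reads (SD, n = 3).

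Striated muscle names held 0.0667% ± 0.00489 of the reads. Of this list, 72.2% was miR-1b, at 474, 530 and 441 RPM, whereas miR-1-3p was at 15.3, 12.7 and 9.61. The sequences of the pair share the seed and nearly all further bases.
miR-1b: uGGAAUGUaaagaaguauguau
miR-1-3p: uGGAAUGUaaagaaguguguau
How reads that match both were assigned was not given in the sources used here, so the split between these names is uncertain. miR-499-5p, from a myosin heavy chain gene of heart and slow muscle, was at 103, 98.9 and 113 RPM. miR-133a-3p was at 43.7, 26.5 and 20.5, and miR-208a-3p had no read.

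Lists of cell types that lung lacks or holds in small number were lower. Neuronal names were at 87.2 ± 18.4 RPM, mostly miR-9a-5p at 37.8 RPM and its antisense name miR-9b-3p at 37.7. The counts of this pair were nearly equal in every library, so the sum may hold the same reads under both names. miR-124-3p had 2, 3 and 6 reads. Pancreas names were at 57.3 ± 9.19 RPM (SD, n = 3), of which miR-217-5p made up 84.5%. The names of miR-192 and miR-194, known from gut, liver and kidney epithelium, held 0.0481%, 0.0855% and 0.0520% of the reads. These shares overlapped those of the myeloid list, at 0.0595%, 0.0391% and 0.0921%. The embryonic stem cell list had 2, 0 and 2 reads.

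In 2 of these lists a single library supplied most of the reads. Hepatocyte miR-122 had 5, 8 and 59 reads in sham 1, 2 and 3, which came to 5.73 RPM in sham 3. The X-linked testis cluster had 0, 52 and 2 reads, and 30 of the 52 were miR-741-3p. No mean is given for these lists, since it would rest mainly on 1 library.

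**Figure D2:**
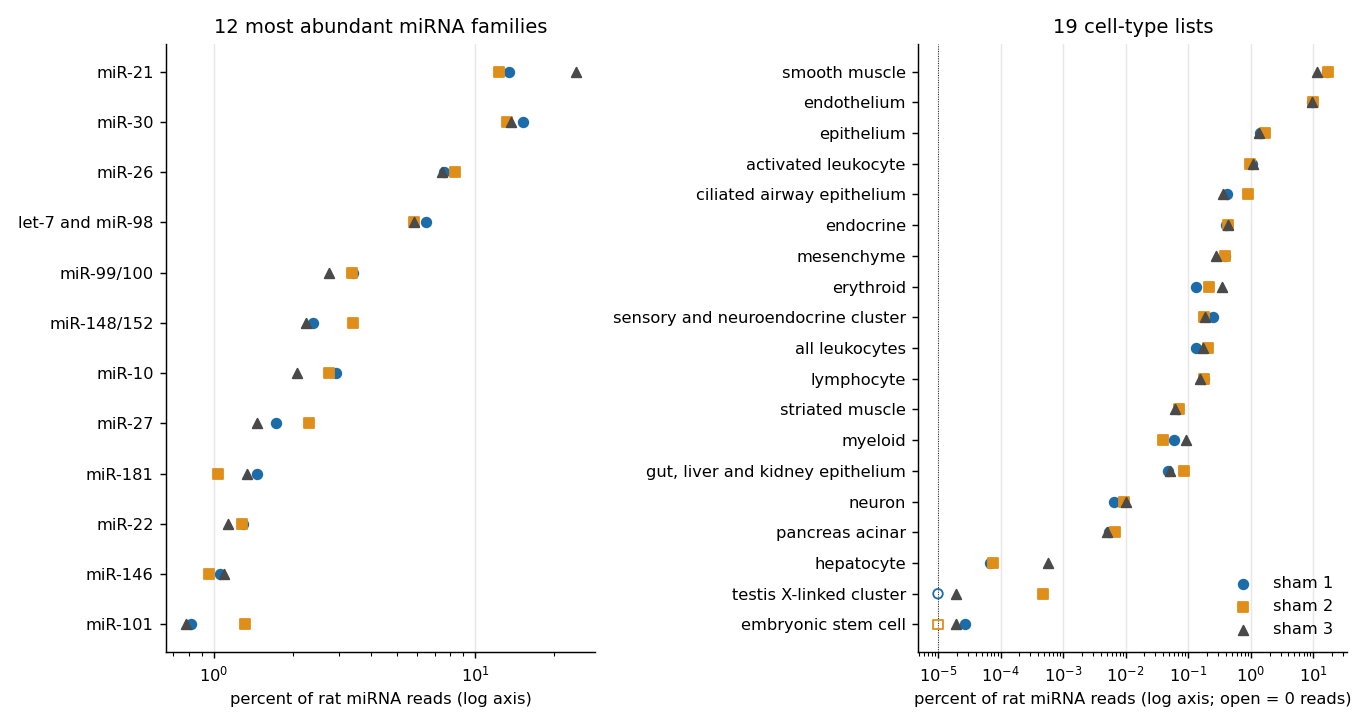
Share of rat miRNA reads (percent, log axis) of the 12 most abundant families, left, and of the 19 cell-type lists, right, in sham 1, 2 and 3, with open symbols for lists without a read. Endothelial shares coincide near 9.64%, ciliated airway names are highest in sham 2 at 0.903%, and the hepatocyte and testis lists each rest mainly on 1 library.

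Strands whose names differ only in a locus number, such as miR-30c-1-3p and miR-30c-2-3p, were pooled for arm use. A hairpin here can therefore stand for several places in the genome. Arm use could be described for hairpins whose 5p and 3p strands were both listed. There were 240 of them, and 198 had at least 10 reads over both arms in every library. The 5p arm was the more abundant in all 3 libraries in 112 hairpins and the 3p arm in 79. In the other 7 neither arm led in all 3 libraries. In 136 hairpins the leading arm held 90% or more of the reads of the hairpin in every library, 81 of them on the 5p and 55 on the 3p side. The median SD of the 5p share between libraries was 0.440 percentage points. These numbers include the second names of antisense pairs, described below. Without them, a setting chosen after seeing the data, the 5p arm led in 109 of 193 hairpins and the 3p arm in 77.

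The hairpins of the most abundant miRNAs were nearly all of the strongly uneven kind. miR-21 gave 99.996% of its reads from the 5p arm and miR-143 0.0868% ± 0.0141 (SD, n = 3). miR-126a was less uneven, with 5.41%, 6.69% and 5.19% from the 5p arm. Its 5p strand, which is known to repress Dlk1 in endothelium, was at 5564 ± 910 RPM, 29th of all names. The 2 strands carry different seeds.
miR-126a-5p: cAUUAUUAcuuuugguacgcg
miR-126a-3p: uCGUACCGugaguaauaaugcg

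Arm use was also described by level. Of the 63 hairpins at 1000 RPM or more, 55 were strongly uneven, against 11 of the 30 below 10 RPM, where counting error on each share is also larger. The leading arm began with U in 94 of the 166 hairpins with both sequences, and the minor arm in 31. In 76 hairpins only the leading arm began with U and in 13 only the minor arm.

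Even hairpins were sought among those with at least 1000 reads in every library. The most even was miR-199a, a miRNA of fibroblasts and other mesenchymal cells, with 50.1%, 47.0% and 49.9% of its reads from the 5p arm. Its 2 strands are shown because both were abundant, at 1652 and 1724 RPM, and carry unrelated seeds.
miR-199a-5p: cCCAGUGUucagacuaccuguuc
miR-199a-3p: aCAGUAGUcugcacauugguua
The 95% Wilson interval of its 5p share was 49.6 to 50.7% in sham 1, 46.5 to 47.5% in sham 2 and 49.3 to 50.5% in sham 3. Only sham 2 excluded an even split. These intervals cover counting error only, since the reads carry no molecular identifiers.

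miR-28 also changed sides, with 43.7%, 51.1% and 46.5% from the 5p arm. miR-106b, let-7d, miR-423 and miR-322 stayed on the 5p side with means of 53.2%, 55.9%, 56.0% and 58.0%. miR-3068, miR-503 and miR-455 followed with means of 64.6%, 72.3% and 73.2%. The largest shift between libraries among these deep hairpins was that of miR-181c, at 70.8%, 53.7% and 74.5%, with sham 2 apart from the others. Of the 7 hairpins without a steady leading arm, the other 5 (miR-29c, miR-434, miR-33, miR-212 and miR-3084a) had fewer than 1000 reads in at least 1 library. In miR-3084a the 5p arm never led, and both arms had 11 reads in sham 2.

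**Figure D3:**
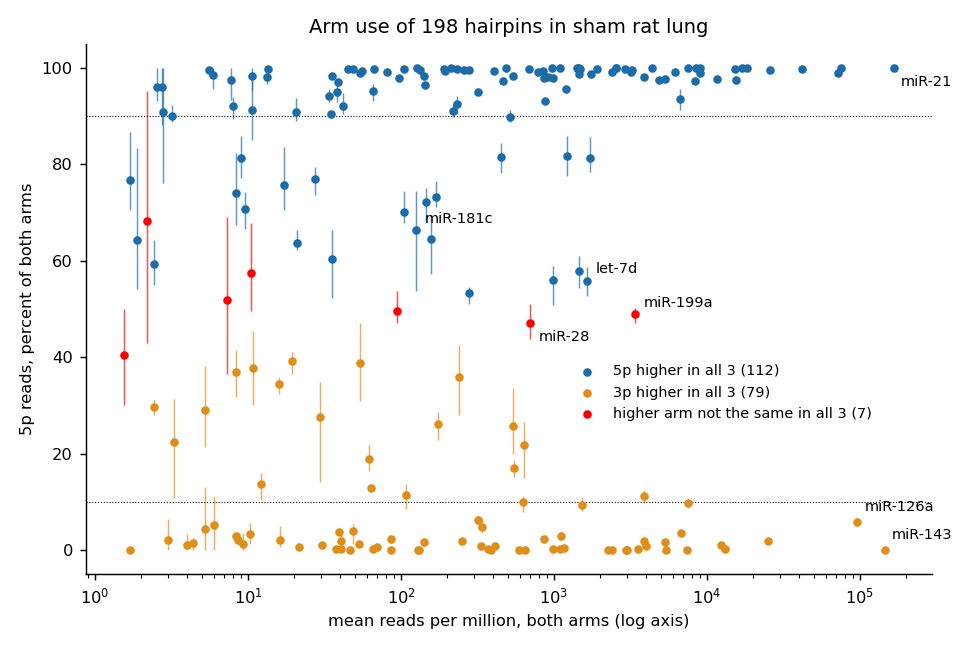
Share of reads from the 5p arm (percent, mean as a point and range over sham 1, 2 and 3 as a line) against the mean level of the hairpin in RPM (log axis), for 198 hairpins. Most points lie beyond the dotted lines at 10% and 90%, and miR-199a and miR-28 lie near 50% with lines that cross it.

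Reads were also summed by arm. Names ending in 5p held 58.7%, 55.3% and 65.3% of the reads in sham 1, 2 and 3, and names ending in 3p 37.4%, 41.2% and 31.3%. Sham 3 had both the highest 5p share and the most miR-21-5p. Arm shares without miR-21-5p were not computed, so its part in the order of the libraries was not tested.

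Members of 1 miRNA cluster are cut from a common primary transcript, yet their levels were seldom alike. In the 22 clusters with at least 2 members found under their list names, the most abundant strand of the highest member exceeded that of the lowest by a median of 9.23-fold. The difference was over 10-fold in 8 clusters and under 2-fold in 3. The cluster of miR-191 and miR-425 is not in these counts, since its first member was listed as miR-191a. miR-191a-5p was at 9015 RPM and miR-425-5p at 844. miR-34c-5p was 40.5-fold above miR-34b-3p (38.8- to 47.2-fold in a library) and miR-143-3p 23.2-fold above miR-145-5p (18.9- to 33.8-fold). In the miR-17-92 cluster, which drives proliferation, miR-92a-3p at 1164 ± 169 RPM stood 36.9-fold above miR-18a-5p at 31.5 ± 7.24 (SD, n = 3). By contrast, miR-24-3p, miR-23a-3p and miR-27a-3p lay within 1.31-fold of each other by their means. RefSeq gives miR-24-3p, miR-92a-3p, miR-29b-3p, miR-30c-5p and miR-194-5p 2 places each in the genome, so their levels are sums over these. The ratios that rest on them are not ratios within 1 transcript, and they are part of the median and the counts above.

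The spread between the libraries was described over the 274 names at a mean of 10 RPM or more. The median CV was 17.9%, against 2.46% from counting error alone, and 257 names exceeded 2 times their counting CV. It was 22.7% for names between 10 and 100 RPM and 7.97% for the 16 names at 10000 or more. Sham 1 was the highest library for 123 names, sham 2 for 110 and sham 3 for 41, with miR-21-5p in the total. Counting error was thus a small part of the spread at these levels.

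Among names at 100 RPM or more, the largest CVs were those of miR-3556a (66.6%), miR-223-5p (63.0%), miR-34b-3p (60.5%) and miR-144-3p (58.7%). miR-486, miR-34c-3p, miR-34c-5p, miR-451-5p, miR-652-3p and miR-1298 completed the 10 most variable. Among them, miR-34b-3p, miR-34c-5p and miR-34c-3p were on the ciliated airway list and miR-223-5p on the myeloid list. The erythroid list had miR-144-3p, miR-451-5p and miR-486. The miR-34b and miR-34c names share a cluster, as do miR-144 and miR-451, so these names are not independent of each other. miR-3556a lies antisense to miR-29a-3p. miR-652-3p was at 606, 376 and 236 RPM and miR-1298 at 1184, 598 and 636, both highest in sham 1.

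The smallest CV was 0.698%, for miR-423-5p at 555, 555 and 549 RPM, which was below its counting CV of 1.40%. It was followed by miR-126a-3p, miR-3596d, let-7g-5p, let-7f-5p and miR-30e-5p, between 2.07% and 2.91%. miR-3557-5p, miR-378a-3p, miR-221-3p and miR-339-5p completed the 10 steadiest, with CVs of up to 3.95%. Among them, miR-3557-5p lies antisense to miR-378a-3p and miR-3596d to let-7f-5p, with similar counts, so these names are not independent of each other. Without miR-21-5p in the total, miR-423-5p was at 641, 633 and 724 and miR-126a-3p at 102442, 105186 and 120602 RPM, so their small CVs depend on the total used.

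Each library was also set against the mean of the other 2. At 1.5-fold or more, sham 1 had 27 names above and 13 below, sham 2 had 35 above and 19 below, and sham 3 had 12 above and 39 below. Without miR-21-5p in the total, the numbers became 23 above and 19 below for sham 1, 23 and 23 for sham 2, and 15 and 23 for sham 3, so the larger number above in sham 2 was lost. Between pairs of libraries, the median difference without regard to sign was 0.28 to 0.32 on the log2 scale.

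**Figure D4:**
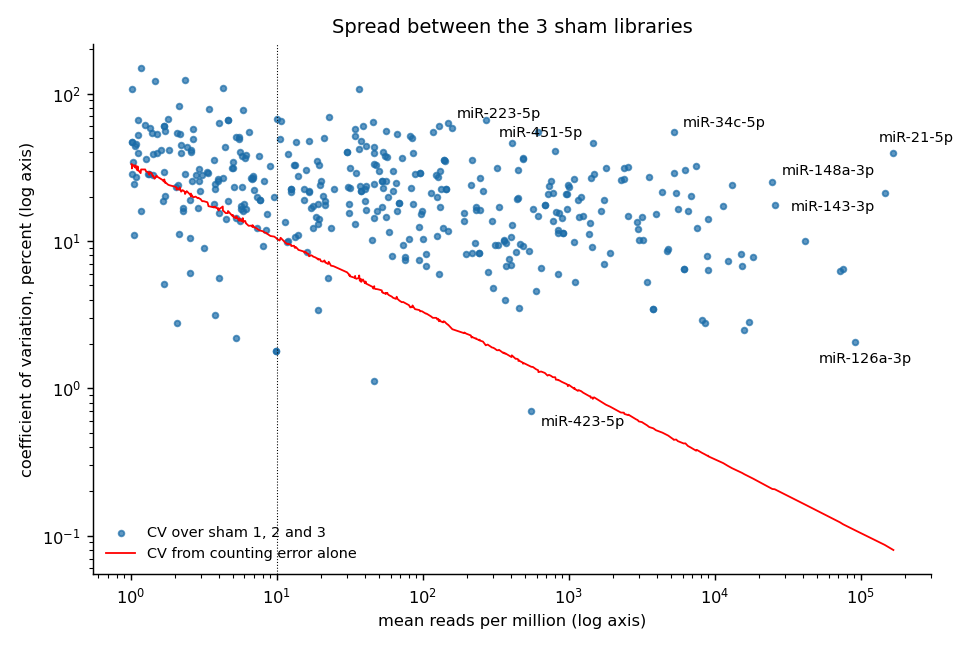
CV over sham 1, 2 and 3 (percent, log axis) against mean level (RPM, log axis) for names at 1 RPM or more, with the CV that counting error alone would give as a red line and a dotted line at 10 RPM. Above 10 RPM nearly all points lie over the line, and miR-423-5p at 0.698% lies under it.

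Some of the listed names had equal or nearly equal counts. The rat annotation lists miRNAs on opposite strands of 1 place, whose mature strands are reverse complements of each other. Examples are shown with the run of complementary bases in capitals.
let-7a-5p: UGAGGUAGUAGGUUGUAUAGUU
miR-3596a: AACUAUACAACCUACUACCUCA
miR-126a-5p: CAUUAUUACUUUUGGUAcgcg
miR-126b: UACCAAAAGUAAUAAUGugcug
let-7a-5p had 48775, 64251 and 59484 reads in sham 1, 2 and 3, and miR-3596a had 48773, 64251 and 59484. The counts of the pair differed by at most 2 reads in any library.

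There were 42 such pairs with a complementary run of at least 17 nt, of which 38 had a mean of 5 or more reads for the first name. In 25 of the 38 both names lay within 5% or 2 reads of each other in every library, and in 10 the counts were identical throughout. Where the run was 21 or 22 nt long, the name with fewer reads had at least 97.8% of the reads of the other in all 15 pairs. Where it was 17 to 19 nt long, the share ranged from 1.30% to 99.6% in 9 pairs. miR-126b, with a run of 17 nt, had 447, 1090 and 553 reads against 37813, 70872 and 51564 of miR-126a-5p.

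The second names of the pairs held 3.60% ± 0.201 of all reads (SD, n = 3). The largest was miR-3596d, 11th of all names at 15896 ± 398 RPM, with 93.4% of the reads of let-7f-5p. Others were miR-3588 with miR-125b-5p, miR-3557-5p with miR-378a-3p and miR-3553 with miR-183-5p. Whether the counting used strand was not given in the sources used here, so the reads of both strands cannot be told apart, and the level of any second name is uncertain. With the second names left out, a setting chosen after seeing the data, 35 names instead of 39 held 90% of the reads and names with a first U held 88.0%.

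**Figure D5:**
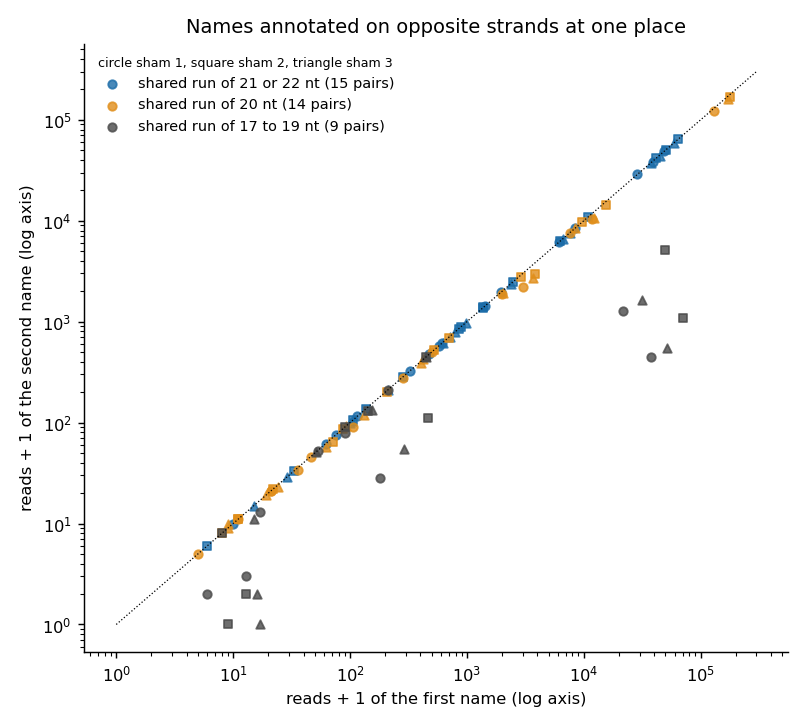
Reads + 1 of the second name against reads + 1 of the first name (both log axes) in 38 pairs annotated on opposite strands of 1 place, by length of the complementary run, with circles for sham 1, squares for sham 2 and triangles for sham 3. Pairs with runs of 21 or 22 nt lie on the dotted line of equal counts, and some pairs with shorter runs lie far under it.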

How the data were processed

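The authors deposited 1 table of whole read counts per miRNA name and library. Beside each count the authors gave a TPM value, which equals the count divided by all listed reads of the library and multiplied by 1000000, with no length term. The submitters' processing notes name Bowtie. Build, annotation, counting rule and use of strand were not given in the sources used here. All 12 value columns were matched to samples by their titles, and only those of sham 1, 2 and 3 were used, as the study's baseline group, with no test between groups.

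Counts of rat-named miRNAs were divided by their own total per library to give RPM. Means and SDs are over 3 libraries, and counting CVs assume Poisson error. Family, cell-type and cluster lists, chosen from general knowledge, and the members described were fixed with earlier results of these data known. Named miRNAs are the 20 most abundant, leading list members, the 10 highest and 10 lowest CVs at 100 RPM or more, and the most even hairpins with 1000 reads. Mature sequences and gene spans are from RefSeq GRCr8. TMM factors came from edgeR 4.0.16 and size factors from DESeq2 1.42.0 in R 4.3.3. All else was computed in Python 3.11.15 with pandas 2.3.3 and scipy 1.17.1, and tested on simulated data.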

Additional observations from a re-analysis of the deposited data

Results flagged for a closer look

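Predicted miRNAs that carry only a number, which no value above uses, held 0.0305% ± 0.00408 of the listed reads (SD, n = 3), drawn to attention because this is a signal outside the named miRNAs. The shares were 0.0346% in sham 1, 0.0305% in sham 2 and 0.0265% in sham 3. Of the 63 predicted names, 28 had reads in every library, 8 exceeded 1 read in 1000000 of the listed reads and 6 had none. The one numbered 62 was at 244.9, 199.9 and 154.6 in 1000000 and made up 65.4% of these reads.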

How the results depend on the processing

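With miR-21-5p left out of the total, the 10 most abundant names held 63.1% of the reads, endothelial names 11.6%, epithelial names 1.78%, the let-7 and miR-98 family 7.27% and the miR-30 family 16.9%, and 27 of 44 other list shares moved by more than 1 SD. With the second names of antisense pairs left out, a setting chosen after seeing the data, the 10 most abundant names held 70.2% and endothelial names 9.99%. The median CV was 21.6% with names at 1 RPM or more, 29.2% with all detected names, 16.1% with TMM scaling and 15.5% with DESeq2 size factors. Leaving out 1 library gave 13.4% to 15.4%, but a median CV over fewer libraries tends to be lower, so these values are not comparable with the others. The share of miR-21-5p was then 12.9% to 18.8%, lowest without sham 3. On the log2(RPM + 1) scale the median SD was 0.26. Pooling reads, adding the predicted names and other read minimums for hairpins moved no main value by more than the spread. Under the rule fixed for shared names, which asked for the same stem or sequence, 1 name was left out and nothing moved. No paired analysis was possible because a single group was described. Depth limits the names under 10 RPM, since between 1 and 10 RPM the median counting CV was 19.3% against a median CV of 28.5%.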
